A study of Drosophila melanogaster with 6 samples.

Results

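The UDP-glycosyltransferase (Ugt) genes of Drosophila melanogaster were followed in antennae of control flies and of flies whose antennal programmed cell death (PCD) had been blocked. They were taken as every gene whose FlyBase symbol begins with Ugt and a digit, which gave 35 of the 17698 genes counted, in 13 families by the number after Ugt. RNA-seq libraries were made from whole antennae of females, with about 350 flies behind each library, and their age is not given in the labels. The 3 control libraries came from peb-Gal4/+;Or49a-GFP/+ flies, and the 3 PCD-blocked libraries from peb-Gal4/+;Or49a-GFP/UAS-p35 flies. All flies therefore carried the driver peb-Gal4 and the reporter Or49a-GFP, and the PCD-blocked flies alone carried UAS-p35, which encodes a baculoviral caspase inhibitor. Expression of p35 follows peb-Gal4, a driver used widely for antennal sensory neurons, so cells without Gal4 are not expected to make it. Each PCD-blocked library was matched to a control library in 3 sample pairs.

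UDP-glycosyltransferases join a sugar from a UDP-sugar, in insects mostly glucose, to small fat-soluble molecules, which makes them more soluble in water and easier to export. They sit in the membrane of the endoplasmic reticulum and act on plant toxins, insecticides, pigments and hormones. In antennae they are studied as odorant-degrading enzymes, together with cytochrome P450s and glutathione transferases, and such enzymes are found in neurons and in the support cells around them.

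Libraries held 15588725 to 17808516 gene counts, and levels are given as CPM, the count relative to the TMM-adjusted total of each library. Orco, the co-receptor of olfactory neurons, had 3011 ± 54.0 CPM in controls (SD, n = 3) and the odorant-binding protein gene Obp19d, of support cells, 21054 ± 530 CPM. The photoreceptor gene ninaE had 0.115 ± 0.0578 CPM in controls. Together the 5 eye markers had 7.08 to 8.14 CPM in controls and 14.5 to 17.5 CPM with PCD blocked. Of 5 gut and tubule markers, the gut genes betaTry and Jon99Cii and the tubule gene Uro had no count in any library. The fit with edgeR's quasi-likelihood model took in 9181 genes, with the sample pair as a block and an adjusted p under 0.05 as the threshold. It called 14.3% of them higher with PCD blocked and 13.3% lower.

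One member dominated the family. Ugt35B1, formerly Ugt35b and known for its strong expression in the antenna, took 69.3% of all Ugt CPM in controls and 69.5% in PCD-blocked antennae (means over 3 libraries each). Its level per length, as CPM per kb of exon, was 2459 ± 168 in controls (SD, n = 3), the 24th highest of all genes. Ugt302C1 came next at 236 ± 19.6 CPM per kb, followed by Ugt49C1 at 200.5 ± 3.00. The control libraries of these last 2 genes did not overlap in level per length.

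A group of 5 genes followed with control levels close together. These were Ugt35A1 at 75.0 ± 3.84 CPM per kb, Ugt37D1 at 71.9 ± 3.94, Ugt35C1 at 71.4 ± 11.7, Ugt50B3 at 66.7 ± 2.40 and Ugt301D1 at 65.8 ± 4.56, and each overlapped the next in this order within 1 SD. Below them, Ugt35E2 had 25.8 CPM per kb, Ugt49B1 23.9, Ugt316A1 21.2, Ugt36D1 11.8 and Ugt36F1 9.67 CPM per kb in controls. The other 8 tested members, from Ugt36A1 at 3.81 to Ugt302K1 at 0.339 CPM per kb, were low. Ugt36E1, which olfactory neurons need for normal pheromone discrimination, was among these low genes, with 0.414 ± 0.0765 CPM per kb in controls.

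**Figure D1:**
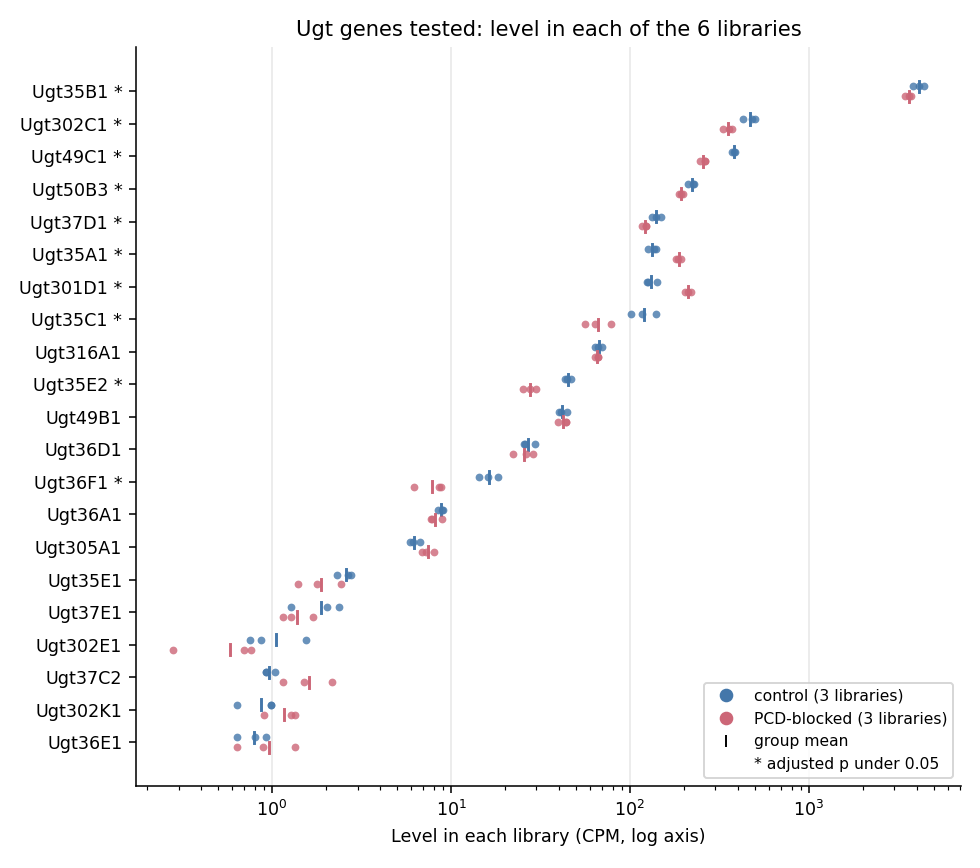
Level of each of the 21 tested Ugt genes in CPM on a log axis, with 1 point per library, control in blue and PCD-blocked in red, and a vertical bar at each group mean. Ugt35B1 lies far above the rest, and the 10 genes marked with a star, for an adjusted p under 0.05, show groups that do not overlap.

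The filter on low counts left 21 of the 35 members for testing, and the other 14 had at most 11 counts in a library. Of these 14, Ugt35D1, Ugt37A2, Ugt37C1, Ugt49B2, Ugt303B2 and Ugt307A1 had no count in any library. The remaining 8 were Ugt37A1, Ugt37A3, Ugt37B1, Ugt303A1, Ugt303B1, Ugt303B3, Ugt304A1 and Ugt317A1. Ugt303A1 had 2, 1 and 1 counts in the control libraries and 5, 4 and 5 in the PCD-blocked ones. Its ratio over the pooled libraries was 3.67, with an exact binomial 95% interval of 1.15 to 15.3 that covers counting error only. Ugt303A1 was picked out among these 8 after the values were seen, and the intervals of the others included no change. Fitted without the expression filter, Ugt303A1 did not pass (adjusted p = 0.258 by edgeR). A count of 0 in a library allows a level of up to 3 counts, which corresponded to 0.168 to 0.191 CPM, with counting error alone considered.

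With PCD blocked, 8 of the 21 tested members fell and 2 rose, while 11 were not called. The lower share was 38.1%, beside 13.3% of all tested genes. Counted in either direction, 10 of 21 passed, or 47.6%, beside 27.7% of all tested genes. The median log2 fold change of the tested members, PCD-blocked minus control, was -0.19, beside 0.00 for all tested genes. All 10 called members had a mean of at least 10 CPM over the 6 libraries, as did 13 tested members in all. Of tested genes at this level, 30.7% were called.

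Among the 10 called members 4 differed by 1.5-fold or more, namely Ugt36F1, Ugt35C1, Ugt35E2 and Ugt301D1. They made up 19.0% of the 21 tested members, beside 6.51% of all tested genes that were both called and changed by that much. Of all called genes, 23.6% changed by at least 1.5-fold. The groups did not overlap in 8 members that were lower in PCD-blocked antennae, beside 18.8% of all tested genes, and in 4 that were higher, beside 19.9%. The 8 lower ones were the 8 called members, and the 4 higher ones were the called Ugt35A1 and Ugt301D1 together with Ugt37C2 and Ugt305A1, which did not pass. In whole antennae, fewer cells of a type and less RNA per cell cannot be told apart.

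**Figure D2:**
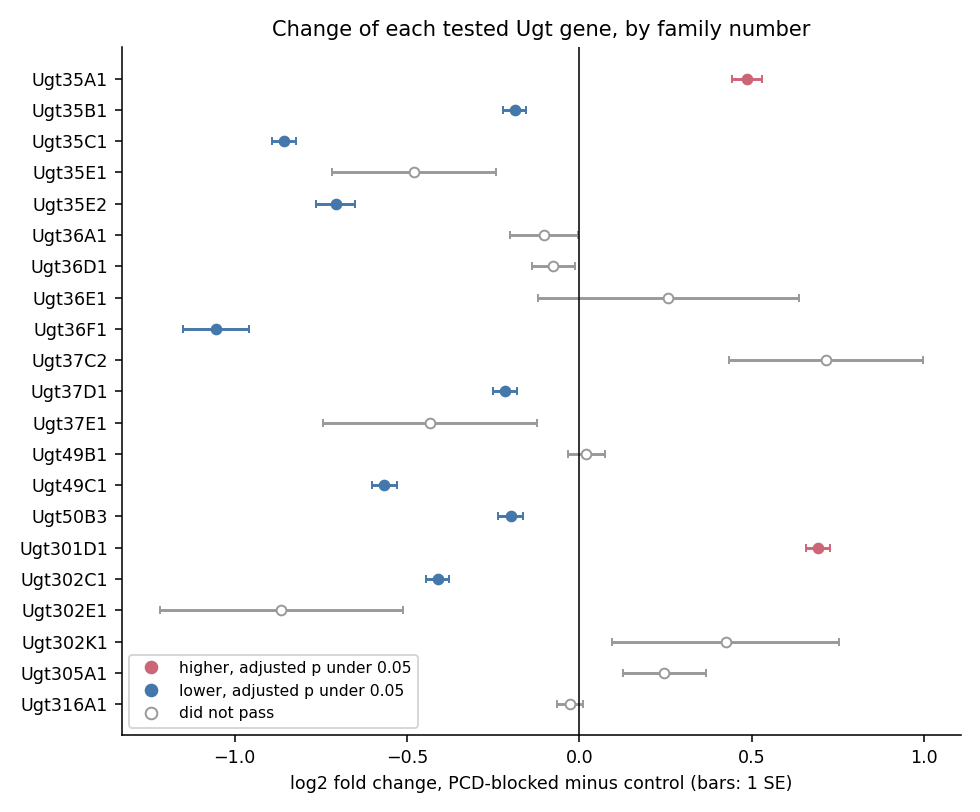
Log2 fold change of each tested Ugt gene, PCD-blocked minus control, with bars of 1 SE, ordered by family number, and filled points for an adjusted p under 0.05 (edgeR). The 8 lower genes run from -1.05 for Ugt36F1 to -0.19 for Ugt35B1, and the 2 higher ones are Ugt35A1 at 0.49 and Ugt301D1 at 0.69.

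Summed over the 35 members, the level was 6249, 5947 and 5589 CPM in the control libraries and 5326, 5226 and 5012 CPM in the PCD-blocked ones. Every PCD-blocked library lay below every control library. The means were 5928 ± 331 and 5188 ± 160 CPM (SD, n = 3 per group), a ratio of 0.875. Without Ugt35B1 the sums were 1817 ± 50.7 and 1582 ± 30.4 CPM, a ratio of 0.870. The share of Ugt35B1 in the sum ran from 68.4% to 70.1% in controls and from 69.1% to 69.9% in PCD-blocked libraries, and these ranges overlap.

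Family 35 held the most abundant member, and its genes moved in both directions. Of its 6 members 5 were tested, and 3 of these fell and 1 rose. Ugt35B1 (FBgn0026314, chromosome 3R, 11168503 to 11170246 on the BDGP6 build) had 4379, 4133 and 3820 CPM in control libraries 1 to 3 and 3722, 3633 and 3465 CPM in PCD-blocked libraries 1 to 3. All PCD-blocked values were below all control values, but the lowest control and the highest PCD-blocked library lay close together. The log2 fold change was -0.19 ± 0.03 (SE), with an adjusted p = 0.00333 by edgeR, and the call was lost without pair 2 (adjusted p = 0.0526).

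Ugt35C1 (FBgn0040256, chromosome 3R, 11126597 to 11128328), formerly Ugt86Dd and linked to nicotine resistance in fly larvae, had 140.2, 116.7 and 101.3 CPM in controls and 78.1, 63.6 and 56.2 CPM in PCD-blocked libraries. Both groups spread widely, but the ratio within each pair was nearly the same, at -0.84, -0.88 and -0.85 on the log2 scale. The log2 fold change was -0.86 ± 0.03 (SE, adjusted p = 1.12e-06 by edgeR). Ugt35E2 (FBgn0040255, chromosome 3R, 11166177 to 11167981) had 44.8, 46.7 and 43.4 CPM in controls and 29.8, 27.6 and 25.4 CPM in PCD-blocked libraries. Its groups were clearly apart, with a log2 fold change of -0.71 ± 0.06 (SE, adjusted p = 4.31e-05 by edgeR).

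Ugt35A1 (FBgn0026315, chromosome 3R, 11170817 to 11172664), formerly Ugt35a, went the other way. It had 139.2, 126.0 and 135.5 CPM in controls and 186.5, 192.6 and 181.6 CPM in PCD-blocked libraries. Every PCD-blocked library was higher, with a log2 fold change of 0.49 ± 0.04 (SE, adjusted p = 8.31e-05 by edgeR). The 2 neighbours Ugt35A1 and Ugt35B1 lie on the same strand with 570 bases between them. Counts of Ugt35B1 were 31.5, 32.8 and 28.2 times those of Ugt35A1 in the control libraries and 20.0, 18.9 and 19.1 times in the PCD-blocked ones, a pair of genes singled out after their values were seen. Ugt35E1, the last tested member of the family, had 2.58 ± 0.246 CPM in controls and 1.87 ± 0.519 with PCD blocked, which did not pass (adjusted p = 0.179 by edgeR).

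Among called members, Ugt301D1 rose most and Ugt36F1 fell most. Ugt301D1 (FBgn0032684, chromosome 2L, 18509560 to 18513512), the 1 member of family 301, had 125.9, 125.3 and 141.3 CPM in controls and 203.8, 210.2 and 219.5 CPM in PCD-blocked libraries. It was higher in every PCD-blocked library, by 0.69 ± 0.03 on the log2 scale (SE, adjusted p = 3.62e-06 by edgeR). Its level per length rose from the 8th to the 4th place among Ugt genes, at 106 ± 3.97 CPM per kb, beside 105 ± 3.09 for Ugt35A1.

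Ugt36F1 (FBgn0027074, chromosome 2L, 18819344 to 18822573) had 18.3, 14.4 and 16.0 CPM in controls and 8.53, 6.19 and 8.81 CPM in PCD-blocked libraries. This 2.08-fold fall had a log2 fold change of -1.05 ± 0.10 (SE, adjusted p = 8.42e-05 by edgeR). The other 3 members of family 36 did not pass. Ugt36D1, which lies next to Ugt36F1 on the same strand, had 27.0 ± 2.12 and 25.6 ± 3.23 CPM, with a 95% interval of its log2 fold change from -0.22 to 0.07. Ugt36E1 had 0.788 ± 0.146 and 0.958 ± 0.360 CPM, with a wide interval from -0.61 to 1.12 at so few counts. Ugt36A1, known as Dot from a driver active in the pericardial cells beside the heart, had 8.77 ± 0.249 and 8.18 ± 0.633 CPM.

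**Figure D3:**
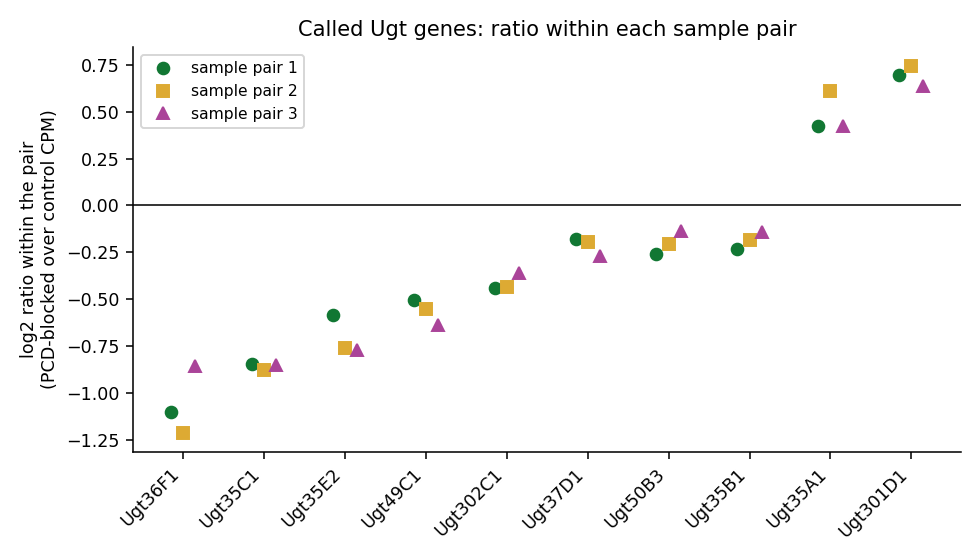
Log2 ratio of PCD-blocked over control CPM within each of the 3 sample pairs, for the 10 Ugt genes with an adjusted p under 0.05. All 3 pairs lie on one side of 0 for every gene, from -1.22 for Ugt36F1 in pair 2 to 0.75 for Ugt301D1 in pair 2.

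Ugt302C1, Ugt49C1, Ugt50B3 and Ugt37D1 fell as well. Ugt302C1 (FBgn0040259, chromosome 3R, 11157098 to 11159744) had 501.8, 483.4 and 426.7 CPM in controls and 370.2, 357.6 and 332.7 CPM in PCD-blocked libraries. Its log2 fold change was -0.41 ± 0.03 (SE, adjusted p = 4.63e-05 by edgeR), with a gap between the groups. Ugt49C1 (FBgn0034605, chromosome 2R, 21215435 to 21217779) had 374.2, 384.0 and 384.2 CPM in controls and 263.8, 261.4 and 247.2 CPM in PCD-blocked libraries. The control libraries lay close together and well above the others, with a log2 fold change of -0.57 ± 0.04 (SE, adjusted p = 1.17e-05 by edgeR).

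The neighbour of Ugt49C1, Ugt49B1, differed little, with 41.9 ± 2.25 CPM in controls and 42.5 ± 2.26 in PCD-blocked antennae and a 95% interval of the log2 fold change from -0.10 to 0.14. Ugt50B3 (FBgn0050438, chromosome 2R, 5496674 to 5549543) had 224.3, 226.8 and 212.0 CPM in controls and 187.2, 196.9 and 193.1 CPM in PCD-blocked libraries. Its fall was small, at -0.20 ± 0.04 on the log2 scale (SE, adjusted p = 0.00336 by edgeR). Ugt37D1 went from 140.6 ± 7.71 to 121.1 ± 3.92 CPM, a log2 fold change of -0.21 (adjusted p = 0.00197 by edgeR).

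Ugt316A1, at 66.8 ± 2.94 CPM in controls and 65.6 ± 1.41 in PCD-blocked antennae, had the narrowest interval among members that did not pass, from -0.11 to 0.06 on the log2 scale. The 8 tested members under 10 CPM gave 0 calls with edgeR, 0 with DESeq2 and 0 with limma-voom, and 2 of them, Ugt37C2 and Ugt302E1, had an unadjusted p under 0.05 with edgeR. Their log2 fold changes were 0.72 ± 0.28 and -0.86 ± 0.35 (SE), sizes like those of the called members with much larger errors. Ugt305A1 had a log2 fold change of 0.25 ± 0.12 (SE), Ugt302K1 of 0.42 ± 0.33 and Ugt37E1 of -0.43 ± 0.31, and none of these could be told from 0 at this depth.

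Many members lie side by side in the genome. A stretch of 51.3 kb on chromosome 3R, from 11126597 to 11177910, holds 10 of them, of which 4 fell, 1 rose, 3 were not called and 2 were not tested. Levels differed widely between adjacent genes there. Ugt302C1 at 471 ± 39.2 CPM in controls lies 584 bases from Ugt302E1 at 1.06 ± 0.434 CPM. CG4757, the gene between the Ugt302 and Ugt35 genes of the stretch, went from 236 to 137 CPM, with a log2 fold change of -0.77 (adjusted p = 5.58e-06 by edgeR).

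On chromosome 2L, Ugt36F1, Ugt36D1 and Ugt36E1 lie in a row, and so do Ugt37C2, Ugt37E1 and Ugt37D1, with 1 called member in each row. Of the genes that flank single Ugt genes or such rows across the genome, 38 were matched to the counts and 21 tested. Of these 21, 3 were higher, 4 lower and 14 not called, beside 14.3% higher and 13.3% lower among all tested genes. The 4 lower ones were CG4757, CG17928 beside Ugt37C2 (-0.66 on the log2 scale), CG17597 beside Ugt36E1 (-0.45) and CG30440 beside Ugt50B3 (-0.32), with adjusted p = 3.61e-06, 0.000423 and 0.000449 by edgeR for the last 3. The 3 higher ones were Gyg, for glycogenin, beside Ugt49B1 (1.04), Ddr beside Ugt37B1 (0.39) and kon beside Ugt301D1 (0.38), with adjusted p = 3.62e-06, 0.000308 and 0.00265 by edgeR. Called flanking genes thus went in both directions, and a link between them and the Ugt genes was not tested. On the arms that hold called members, 26.9% of tested genes were called on 3R, 27.2% on 2L and 29.6% on 2R, beside 27.7% of all tested genes. No called member shares exon bases with another annotated gene, while Ugt36A1, Ugt36E1 and Ugt49B1 have 400, 48 and 90 exon bases opposite those of CG15418, CG17597 and CG44245.

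**Figure D4:**
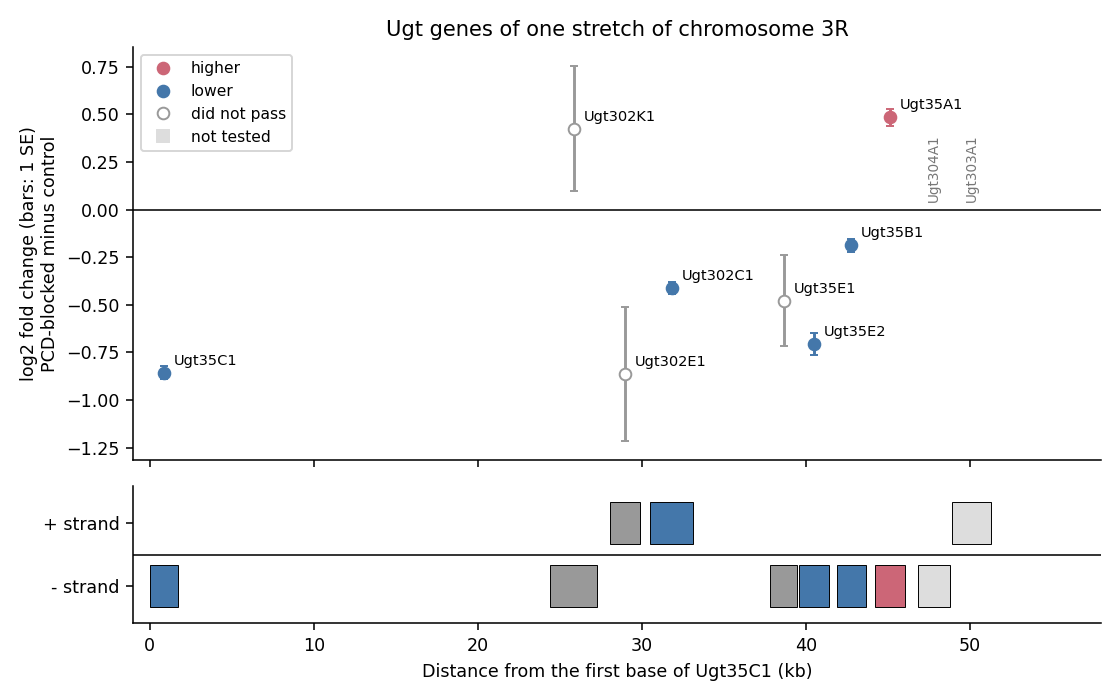
Log2 fold change with bars of 1 SE (top) and position and strand (bottom) of the 10 Ugt genes in 51.3 kb of chromosome 3R, as distance in kb from the first base of Ugt35C1. Ugt35A1, in red, is the called gene above 0, between Ugt35B1, which was lower, and Ugt304A1, which was not tested.

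The enzymes need a sugar donor, so genes that supply UDP-sugars were examined beside them. Of 14 listed, 13 had a matching symbol and 11 were tested. The test called 2 of them higher and 1 lower and left 8 uncalled, with a median log2 fold change of 0.00. The share called was 27.3%, close to the 27.7% of all tested genes. UGP, which makes UDP-glucose, fell by 0.24 ± 0.04 (SE) on the log2 scale, from 211 ± 14.1 to 179 ± 12.0 CPM (adjusted p = 0.00141 by edgeR). The UDP-glucose dehydrogenase gene sgl rose by 0.21, a call DESeq2 did not make (adjusted p = 0.211), and the hexokinase gene Hex-A by 0.27, a call lost without pair 2 (adjusted p = 0.0519 by edgeR). Pgm1, for phosphoglucomutase, was not called, with a value of 0.10 on that scale. The UDP-sugar transporter gene frc is listed at 0 counts in every library, and whether its reads were lost in counting was not examined.

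Of 6 genes for export or hydrolysis of conjugates 5 were tested, of which 1 was higher and 1 lower, with a median of 0.04 beside 0.00 for all tested genes. The ABC transporter gene Mdr49 had 35.9 ± 1.99 CPM in controls and 72.5 ± 1.49 with PCD blocked, a rise of 1.01 ± 0.05 (SE) on the log2 scale (adjusted p = 2.61e-06 by edgeR). Mrp4 had 79.1 ± 8.96 and 71.1 ± 6.07 CPM, and its call as lower was lost without pair 1 (adjusted p = 0.0740 by edgeR), without pair 2 (0.119), without the block (0.230) and with DESeq2 (0.274). Mdr65 (0.04) and betaGlu, for a beta-glucuronidase (0.08), did not pass.

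Of 7 regulators and partners of detoxification enzymes, the test called 0 higher and 3 lower and left 4 uncalled, with a median of -0.10. The lower share was 42.9%, beside 13.3% of all tested genes, with calls that in part did not hold in other fits. The transcription factor gene cnc, the fly counterpart of Nrf2, had 528 ± 14.7 CPM in controls and 459 ± 16.1 with PCD blocked, a log2 fold change of -0.20 ± 0.03 (SE, adjusted p = 0.00172 by edgeR), and Cpr, the reductase of P450 enzymes, fell by 0.16, a call lost without pair 2 (adjusted p = 0.101 by edgeR). The call of maf-S, for the partner of cnc, as lower (-0.16, adjusted p = 0.0466 by edgeR) was lost without any of the pairs (0.0574 to 0.203), without the block (0.0727) and with DESeq2 (0.389). Keap1, which holds cnc inactive, did not pass (-0.10).

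The 2 other large families of detoxification enzymes were compared with the Ugt genes. Of 64 tested genes taken as cytochrome P450 genes by symbol (Cyp and a digit) 24 were lower, or 37.5%, and 11 higher. This set also took in the cyclophilin genes Cyp1 (-0.24, called lower) and Cyp40 (not called), which are not P450 genes. Of 34 tested glutathione transferase genes 13 were lower, or 38.2%, and 8 higher. Among all tested genes 13.3% were lower and 14.3% higher. The medians of the 2 sets were -0.10 and -0.03, beside -0.19 for the Ugt genes, and the difference between families was not tested. The genes with the smallest p in these sets were Cyp4p3, which fell by 2.25, and GstE1, which rose by 1.45 on the log2 scale (adjusted p = 3.26e-07 and 2.06e-06 by edgeR). Tested genes ran from -3.15 to 1.42 in the P450 set and from -1.05 to 1.94 among glutathione transferase genes. The tested Ugt genes, fewer at 21, lay between -1.05 and 0.72.

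**Figure D5:**
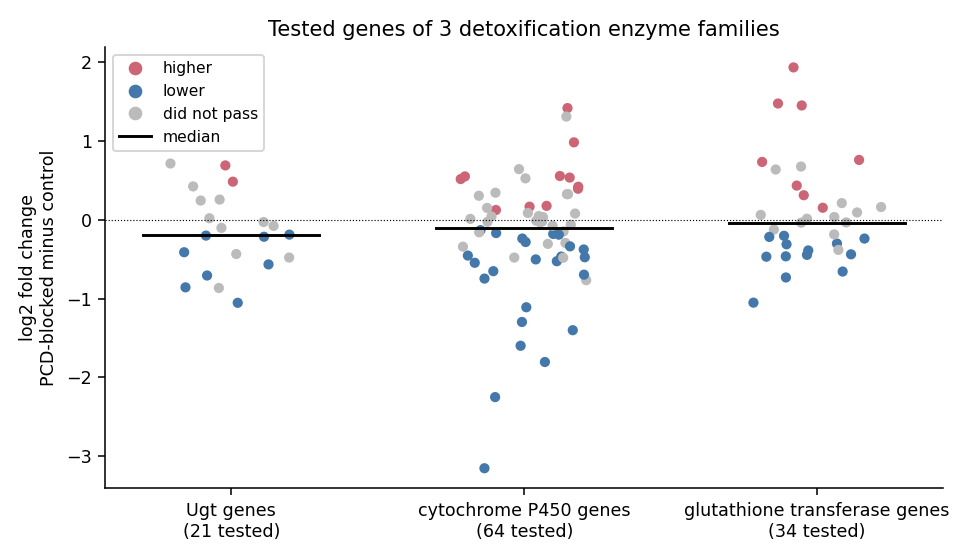
Log2 fold change of each tested gene of the Ugt (21), cytochrome P450 (64) and glutathione transferase (34) families, with 1 point per gene. Points have sideways scatter for legibility and are coloured by call, with a black line at the median. The P450 set was taken by symbol and includes the cyclophilin genes Cyp1 and Cyp40. Each family holds genes called in both directions, and the medians are -0.19, -0.10 and -0.03.

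Of 9 support cell markers 4 were lower and 3 higher, or 77.8% called beside 27.7% of all tested genes, with a median log2 fold change of -0.11. Their summed level ran from 41389 to 42635 CPM in controls and from 35635 to 36683 CPM in PCD-blocked libraries. Obp19d alone made up 5529 of the 6142 CPM between the group means, and without it the sums were 20846 to 21561 and 20199 to 20844 CPM. Obp19d fell by 0.44, lush, an odorant-binding protein gene, by 0.39 and sv, a Pax factor gene, by 0.37, while the CD36-family gene Snmp2 rose by 0.72 on the log2 scale. Of 6 tested glial markers 1 was higher and 1 lower, or 33.3% called, with a median of 0.00 and sums of 3905 to 4003 and 3333 to 3497 CPM. Their log2 fold changes ran from -0.24 to 0.34, so the lower sums do not stand for a fall of all glial markers. Of 7 neuronal markers 1 was higher and 1 lower, or 28.6% called, with a median of 0.05 and sums of 5598 to 5764 and 5903 to 6019 CPM. Both shares are near that of all tested genes. The part of these marker levels in the Ugt changes was not tested.

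Of 4 tested fat body markers 1 was higher and 2 lower, with sums of 44.9 to 177 CPM in controls and 68.6 to 80.3 CPM in PCD-blocked libraries, the 2 lower calls, Yp2 and Yp3, being lost without pair 1 (adjusted p = 0.0506 and 0.0769 by edgeR), without pair 2 (0.0863 and 0.0986) and with DESeq2 (0.121 and 0.0960). Haemocyte and muscle markers gave 0 calls among 5 tested genes each with edgeR, DESeq2 or limma-voom, and 2 and 1 genes had an unadjusted p under 0.05 with edgeR. Their sums were 66.7 to 77.5 and 4.62 to 29.6 CPM in controls, and 60.9 to 82.4 and 2.10 to 34.1 CPM in PCD-blocked libraries. Of 2 tested eye markers 1 was higher, trp, a channel gene, with sums of 7.08 to 8.14 and 14.5 to 17.5 CPM, and no gut or tubule marker was tested.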

How the data were processed

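Each library has 1 deposited file of unnormalised read counts by gene. The BDGP6 build is named in the submitters' processing notes, as are HTSeq 0.9.1, STAR 2.5.3a and cutadapt 1.8. Not given in the sources used here are the annotation release and the strand setting, so reads of exons opposite another gene may be mixed, and reads of similar copies may be lost as ambiguous or multiply aligned. Per the labels' protocols, poly(A) RNA and a directional kit were used. The 5 rows naming no gene held 11.9% to 13.5% of counts and were left out.

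Symbols, positions and exon lengths came from Ensembl release 115 on BDGP6. Tests used edgeR 4.0.16 in R 4.3.3 (TMM, quasi-likelihood test, default filter by group), which kept 9181 genes with 99.95% of gene counts. Sample pair was a block because the design text calls the design paired. Same-numbered libraries had correlations of deviations from group means of 0.116, 0.217 and -0.140. Those of differently numbered libraries ran from -0.358 to 0.243, a range that takes in the same-numbered values. Adjusted p-values follow Benjamini and Hochberg over every tested gene. SE came from the fold change and test statistic. Ratios within pairs had 0.01 CPM added to each value. Replicates are separate collections of flies as far as the labels say. With the pair as a block, p-values rest on the spread of the difference within pairs, and differences shared by both libraries of a pair are removed. The quasi-likelihood fit moderates the spread of each gene toward a trend over all tested genes, so p-values do not rest on the gene's own spread alone. Counts were simulated for the 9181 genes with no differences between pairs and with spread set by level alone. Changes were put into a small part of the genes above 1 CPM. There the test recovered 83.3% of 1.5-fold rises and 90.0% of 2-fold falls, and 4.32% of calls were unchanged genes. These shares hold for that setting, whereas 27.7% of tested genes were called in the data.

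The members and the lists of other genes were chosen with earlier results of these data known. By the rule for named genes, values per library are given for called members changed by 1.5-fold or more and for the 5 members with the highest mean CPM, means for the other called members, and up to 4 genes of each other list by smallest p. The values per library of Ugt35A1, the counts and ratio of Ugt303A1 and the genes flanking Ugt genes fall outside it. So do the values of Orco, ninaE, betaTry, Jon99Cii, Uro and frc. All of these were chosen with their values already seen. Alternatives used DESeq2 1.42.0 and limma 3.58.1 (voom), median-of-ratios factors, TMM without genes above 1% of counts, other filters, no block and each pair left out. Protein and promoter sequences were not analysed here.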

Additional observations from a re-analysis of the deposited data

Results flagged for a closer look

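Reads that aligned to several places, which are not assigned to any gene and enter no comparison, made up a larger share in every PCD-blocked library than in any control library. The shares were 8.52%, 8.29% and 8.04% in PCD-blocked libraries 1 to 3, against 7.21% to 7.67% in controls. How many of these reads came from Ugt genes is not recorded in the count files.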

How the results depend on the processing

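All 10 called Ugt genes kept their call and direction under median-of-ratios factors, TMM without genes above 1% of counts, no expression filter, at least 1 CPM in 3 libraries, no replicate block, DESeq2, limma-voom and without pair 1 or pair 3, and the same 9 did without pair 2, where Ugt35B1 did not pass (-0.19, adjusted p = 0.0526 by edgeR). Without the pair as a block, 2 Ugt genes were higher and 8 lower, and the block decided the call of no Ugt gene. With 1 pair left out, 2 Ugt genes were higher in each case and 7 to 8 lower, and the log2 ratio of the summed level ran from -0.21 to -0.18. Leaving out 1 library was taken as leaving out its pair, since its partner then carries no information. Among 207 comparisons of a tested Ugt gene with an alternative, 204 kept direction and side of the threshold. With 1 pair left out, Ugt36E1 ran from -0.19, without pair 3, to 0.62 and Ugt49B1 from -0.035, without pair 2, to 0.049, neither passing. Of the 11 Ugt genes that were not called, 8 moved by over 1.5 times with a pair left out, among them Ugt302K1 (0.13, without pair 1, to 0.69), Ugt37E1 (-0.84, without pair 3, to -0.20) and Ugt35E1 (-0.67 to -0.24, without pair 3), and 0 of the 10 called ones did.

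Over all tested genes, 753 to 1065 were higher and 729 to 1006 lower with 1 pair left out, the lowest without pair 2, and DESeq2 called 653 and 662. Of the UDP-sugar supply genes 1 to 3 were higher with a pair left out, the lowest without pair 2, and 1 with DESeq2. Of the export and hydrolysis genes 0 to 1 were lower with a pair left out, 0 without the block and 0 with DESeq2. Of the regulators 1 to 2 were lower with a pair left out, the lowest without pair 2. With a pair left out, 9 to 10 genes of the P450 set, Cyp1 and Cyp40 included, were higher and 22 to 23 lower. Of the glutathione transferase genes 7 to 9 were then higher and 11 lower. The cause of these shifts was not tested, beyond the fewer libraries when a pair is left out. Per kb of its longest transcript, Ugt50B3 had 80.9 CPM in controls in place of 66.7, which would place it above Ugt35A1. Protein identity and promoter motifs, planned as descriptions, were not run. At this depth Ugt genes under about 10 CPM had standard errors from 0.10 to 0.38 on the log2 scale.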
